A study of Mus musculus with 20 samples.

Results

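Spermatid-high promoters are the promoters of genes whose expression is high in spermatids, the haploid cells that remodel into spermatozoa after meiosis. Their members were chosen on an independent microarray expression dataset of purified testicular cells, in which the spermatid value had to exceed the spermatogonia value by at least 3 units and to lie above the spermatocyte value. Genes with a protein in the sperm proteome, genes annotated to spermatogenesis, imprinted genes, RIKEN transcripts, microRNAs, olfactory and vomeronasal receptors and Zfp genes were left out. Of the 22480 promoters, 17133 had expression values, 942 met the expression criteria and 533 remained as members, while 409 were removed. None of the methylation values was used to choose them. Of the 533 members, 513 lay on the 19 autosomes, 20 on the X chromosome and 0 on the Y chromosome.

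Sperm DNA was measured by MBD-sequencing in 20 F1 males of the inbred strains C57BL/6J and FVB/N, with 5 males in each of 4 groups and 1 library per male. Pregnant females received di-(2-ethylhexyl) phthalate (DEHP), a plasticizer, orally at 300 mg/kg/day in corn oil from gestation day 9 to 19, or corn oil alone for the controls. Their sons carried no transgene or induced mutation, were not treated themselves, and were killed at 8 weeks of age for sperm from the epididymis and vas deferens. The labels do not give the litters, and the tissue label could not be checked with transcripts, since the males' own RNA was not analysed here. In MBD-sequencing, sheared DNA is enriched for methylated CpG with a protein domain that binds it, and the read number of a promoter depends on its methylation and on how many CG sites it holds. Each promoter was a probe of 2.2 kb, from 2000 bases before to 200 bases after the gene start, and its value is a number of normalized reads.

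Only the mean and the SD of each group were used, and the depth of single libraries is unknown. No p-value is given, since an exact test needs the values of single males and a normal approximation was not used for 5 males a group. Instead, it was asked whether the libraries of 2 groups were separated. With 5 libraries no value can lie further than 1.79 SD from the mean, so where the ranges of mean ± 1.79 SD of 2 groups are apart, no library of one group reaches any of the other group. The reverse does not hold, and every count of separated promoters is a lower limit. DEHP and control samples were submitted to sequencing separately, so effects of treatment and of submission cannot be told apart. The group means also summed to different totals over all promoters, 226268 normalized reads in C57BL/6J controls against 153283, 141092 and 150346 in C57BL/6J DEHP, FVB/N controls and FVB/N DEHP. Directions were therefore read against the median of all promoters in the same comparison and repeated with means scaled to equal sums.

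After meiosis, round spermatids condense their chromatin, exchange histones for transition proteins and protamines, and build the acrosome and the flagellum. They do so with a large set of genes that other tissues hardly use, and many of these are switched on by the factor CREM at cAMP response elements or by RFX factors. In general, promoters with few CG sites tend to be methylated and CG-dense promoters tend to be free of methylation, also in sperm. The expression columns were checked with known markers. All 9 spermatid markers tested, including Prm1, Tnp1 and Acrv1, were highest in the spermatid column. Of the 7 spermatocyte markers, 6 were highest in their own column. Of 7 spermatogonia markers 5 had values, and all 5 were highest in their own column. Only 4 of 6 Sertoli markers were highest in the Sertoli column. Amh (9.00 against 6.30 in the Sertoli column) and Fshr (7.02 against 5.19) were highest in the spermatogonia column. Just outside the limit of 3 units lay Rfx1, Tbc1d22bos and Wdr54 with differences of 2.95, 2.97 and 2.99, and just inside lay Parvg, Dnmt3l and Apoh, each with a difference of 3.00. Their means in C57BL/6J controls were 2.3, 63.4 and 7.2 normalized reads outside, and 34, 29.4 and 14.8 inside.

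The 250 bases before the gene start are printed for 6 members, with each CG site in capitals. They are read 5′ to 3′ from the RefSeq genome GRCm38.p6, the same assembly as mm10. Dcst1 (chr3:89365240-89365489, minus strand) and Proca1 (chr11:78193142-78193391, plus strand) were lower in DEHP in both strains. Gzmn (chr14:56174597-56174846, minus strand) and Adgb (chr10:10472315-10472564, minus strand) were higher in DEHP in FVB/N. Frs3os (chr17:47701997-47702246, minus strand) and Grip1 (chr10:119453784-119454033, plus strand) were among the highest and the lowest members with over 70 CG sites.
Dcst1: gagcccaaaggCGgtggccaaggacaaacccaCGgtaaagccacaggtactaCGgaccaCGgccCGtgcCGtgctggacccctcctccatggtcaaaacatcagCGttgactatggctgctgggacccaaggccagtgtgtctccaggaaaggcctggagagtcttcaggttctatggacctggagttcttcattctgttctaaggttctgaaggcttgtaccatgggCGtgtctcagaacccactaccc
Proca1: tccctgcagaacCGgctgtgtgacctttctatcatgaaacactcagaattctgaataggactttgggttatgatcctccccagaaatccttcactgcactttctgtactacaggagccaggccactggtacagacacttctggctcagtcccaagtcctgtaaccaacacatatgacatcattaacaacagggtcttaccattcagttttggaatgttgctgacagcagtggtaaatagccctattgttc
Gzmn: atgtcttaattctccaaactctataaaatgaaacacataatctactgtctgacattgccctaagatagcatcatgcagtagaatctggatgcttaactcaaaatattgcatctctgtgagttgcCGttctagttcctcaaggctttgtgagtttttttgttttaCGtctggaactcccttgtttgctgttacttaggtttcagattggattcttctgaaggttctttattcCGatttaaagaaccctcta
Adgb: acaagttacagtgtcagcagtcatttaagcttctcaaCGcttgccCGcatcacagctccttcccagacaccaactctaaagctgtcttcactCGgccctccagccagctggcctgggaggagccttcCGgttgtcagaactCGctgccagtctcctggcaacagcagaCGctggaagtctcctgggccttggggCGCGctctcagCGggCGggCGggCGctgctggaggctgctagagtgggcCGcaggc
Frs3os: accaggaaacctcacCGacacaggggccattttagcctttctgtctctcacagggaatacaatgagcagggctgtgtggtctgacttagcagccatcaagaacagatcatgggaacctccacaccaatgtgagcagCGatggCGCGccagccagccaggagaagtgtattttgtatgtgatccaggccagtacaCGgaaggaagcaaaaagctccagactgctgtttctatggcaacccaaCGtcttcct
Grip1: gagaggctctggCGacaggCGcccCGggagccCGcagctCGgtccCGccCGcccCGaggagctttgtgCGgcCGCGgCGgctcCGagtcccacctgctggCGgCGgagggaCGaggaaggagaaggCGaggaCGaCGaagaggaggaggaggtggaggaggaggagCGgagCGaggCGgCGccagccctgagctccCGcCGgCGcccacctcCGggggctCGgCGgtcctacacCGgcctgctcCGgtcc

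In these windows, Grip1 held 31 CG sites, Dcst1 held 8, Frs3os 6, Adgb 13, Gzmn 3 and Proca1 1. The whole probes held 123, 51, 72, 37, 21 and 22 CG sites in the same order. In Frs3os, 11 of the 72 sites lay between 500 bases before and 200 bases after the start. In the GENCODE annotation of this assembly the Dcst1 probe overlapped exons of Dcst1 and of the neighbouring Dcst2, the Proca1 probe exons of Proca1 and Rab34, and the Frs3os probe exons of Frs3os and Frs3. The Grip1, Adgb and Gzmn probes overlapped exons of their own gene only.

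Spermatid-high promoters held fewer CG sites than promoters of other genes. The median was 34 CG sites per probe in members, against 45 in all promoters, 50.5 in 368 spermatocyte-high promoters and 59 in 648 spermatogonia-high promoters chosen with the same exclusions. Against the 13897 other genes with expression values and the same exclusions, which include those 2 groups, the median was 34 against 56. Probes with up to 20 CG sites made up 25.9% of members and 11.5% of these other genes, and probes with over 70 CG sites 15.9% and 31.6%. The difference lay next to the gene start. The first 200 bases of the probe, farthest upstream, held 2.15 CG sites on average in members and 2.16 in other genes, whereas the 200 bases after the start held 8.86 and 15.1. GC content differed less, with a median of 47.7% in members and 49.0% in other genes.

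**Figure D1:**
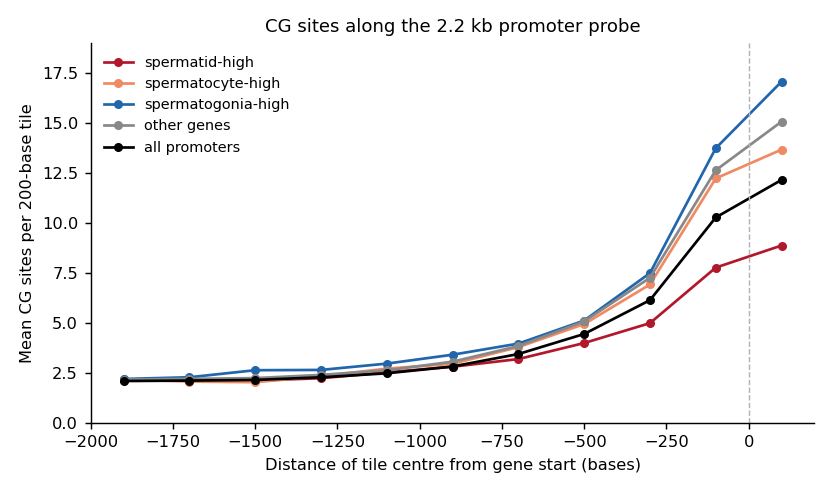
Mean number of CG sites per tile of 200 bases (vertical axis) against the distance of the tile centre from the gene start in bases (horizontal axis), for spermatid-high promoters, 3 comparison groups and all promoters; each point is a mean over promoters. The curves run together at the upstream end, and spermatid-high promoters lie lowest over the last 200 bases before and the 200 bases after it (7.76 and 8.86 sites, against 12.6 and 15.1 in other genes).

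Members with a larger expression difference had fewer CG sites. Ranked by the difference between spermatid and spermatogonia expression, the lowest 178 members had a median of 45.5 CG sites, the middle 177 had 35 and the highest 178 had 25. The 10 members with the largest difference, between 9.53 and 8.55, included Pdcl2, Spz1, Hmgb4, Cypt12, Kif2b, Hrasls5, Gsg1, Gm9999 and Scp2d1. Among them are an HMG box protein (Hmgb4), a kinesin (Kif2b) and a protein of the perinuclear theca family (Cypt12). Hrasls5 held 65 CG sites and the other 9 held between 14 and 39.

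The window from 250 bases before to 50 after the gene start was searched on both strands for 3 motifs that do not overlap each other, TGACGTCA (the cAMP response element), GTTGCCA (part of the site of RFX factors) and TATAAA (the TATA box). GTTGCCA was found in 60 of the 533 members (11.3%), against 4.01% of all promoters and 3.50% of the other genes with the same exclusions. It was found in 8.97% of spermatocyte-high and in 2.47% of spermatogonia-high promoters. Compared at similar CG content, the share was 14.2% of members and 4.66% of all promoters with 21 to 70 CG sites, 7.97% and 4.09% with up to 20 CG sites, and 5.88% and 2.55% with over 70. Of the 63 matches in members, 33 (52.4%) began within the 100 bases before the start, against 423 of 948 (44.6%) in all promoters. TGACGTCA was found in 18 members (3.38%), in 3.70% of spermatogonia-high promoters, in 2.76% of other genes and in 2.38% of all promoters. TATAAA was found in 9.38% of members, 9.81% of other genes and 12.8% of all promoters. At similar CG content the gap to all promoters was widest with up to 20 CG sites, 21 of 138 members against 1432 of 4938 promoters. It was found in 8.39% and 10.2% with 21 to 70 CG sites, and in 3.53% and 4.11% with over 70. Motif shares of other genes were not split by CG content. Of the 60 TATAAA matches in members, 12 (20%) began within the 100 bases before the start, against 1477 of 3529 (41.9%) in all promoters. These shares are exact matches of letters and do not show that a factor binds.

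Promoters with these motifs are shown for 2 members, with the motif in capitals. Spag4 (a SUN domain protein, chr2:156064960-156065209, plus strand) carried TGACGTCA, starting 34 bases before the gene start. Actl7b (a testis-specific actin-like protein, chr4:56741426-56741675, minus strand) carried GTTGCCA on the printed strand, starting 17 bases before the gene start.
Spag4: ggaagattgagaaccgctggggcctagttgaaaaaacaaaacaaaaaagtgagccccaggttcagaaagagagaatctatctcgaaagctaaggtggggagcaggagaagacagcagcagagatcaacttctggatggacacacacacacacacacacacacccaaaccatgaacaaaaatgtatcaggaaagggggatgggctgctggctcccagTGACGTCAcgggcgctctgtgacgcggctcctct
Actl7b: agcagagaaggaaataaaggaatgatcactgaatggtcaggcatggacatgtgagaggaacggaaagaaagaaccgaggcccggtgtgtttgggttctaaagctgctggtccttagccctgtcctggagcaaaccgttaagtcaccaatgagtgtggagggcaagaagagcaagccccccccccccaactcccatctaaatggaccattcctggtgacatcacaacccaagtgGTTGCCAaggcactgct

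**Figure D2:**
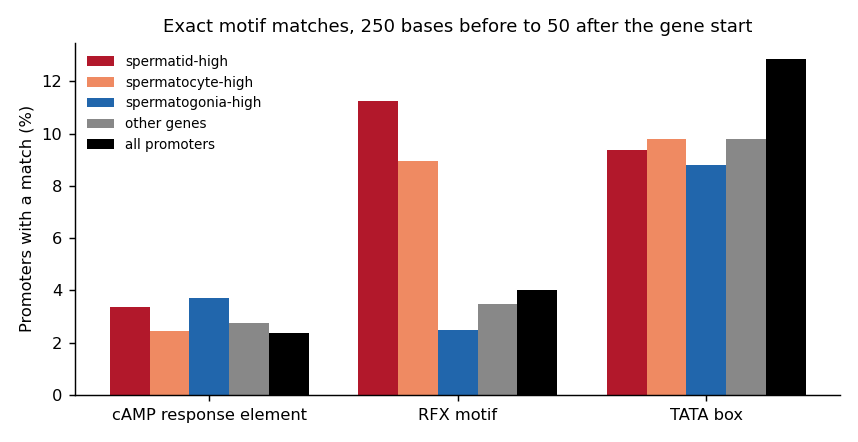
Percentage of promoters with at least 1 exact match (vertical axis) of the cAMP response element TGACGTCA, the RFX motif GTTGCCA or the TATA box TATAAA on either strand of the 300-base window; bars stand for the 5 groups of promoters named in the legend. The RFX motif reached 11.3% of spermatid-high promoters and 8.97% of spermatocyte-high promoters, against 2.47% to 4.01% in the other 3 groups.

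The members carried more reads than the average promoter in all 4 groups. For C57BL/6J, the median over members was 7.4 normalized reads with vehicle (all promoters 5.0) and 6.9 with DEHP (5.3). For FVB/N, it was 4.1 with vehicle (3) and 6.6 with DEHP (4.9). The level varied with the number of CG sites. In members, other genes and all promoters the median was highest within probes of 21 to 40 CG sites. Spermatocyte-high promoters differed, with 5.6 reads in C57BL/6J controls there and 5.85 with 41 to 70 CG sites. With 21 to 40 CG sites, members had a median of 14.5 reads in C57BL/6J controls, other genes 11.8 and all promoters 14.2. The quartiles were 5.05 to 26.9, 3.8 to 25 and 4.5 to 26.5. In the same order, the medians were 6.9, 4.8 and 5 with 41 to 70 CG sites. They were 6.0, 5.65 and 3.5 with up to 20 CG sites, and 2.35, 2.6 and 2.4 with over 100. The quartiles of these sets overlapped in each of these ranges. No test was run, since promoters of the same libraries are not replicates.

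**Figure D3:**
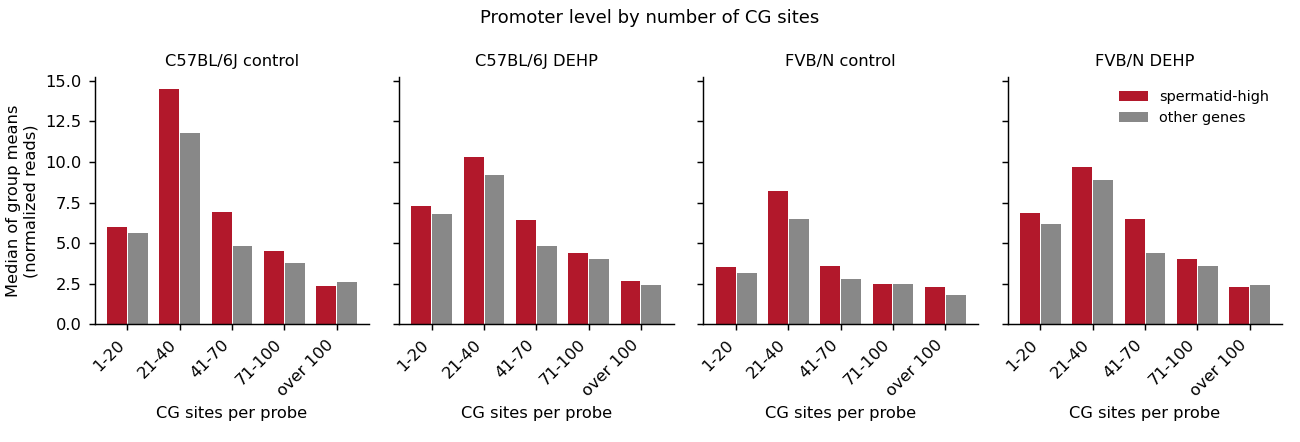
Median of the group means in normalized reads (vertical axis) by number of CG sites per probe (horizontal axis) in the 4 groups, for spermatid-high promoters and other genes with the same exclusions. In each group the bars peak at 21-40 CG sites, with 14.5 against 11.8 reads in C57BL/6J controls, and are lowest at over 100 CG sites.

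Where CG sites lay within the probe went with the level too. Among members with fewer than 10 CG sites in the last 500 bases before the start and the 200 bases after it, the median in C57BL/6J controls was 6.8 reads where the rest of the probe held up to 15 CG sites and 21.8 reads where it held 16 to 25. Among members with 30 or more CG sites near the start, the medians were 3.45 and 6.45 reads for the same ranges. With more than 25 CG sites in the rest of the probe they were 19.5 and 3.3 reads. In all promoters the medians were 3.7, 21.3 and 18.9 reads, and 2.8, 5.5 and 3.1 reads. Both sets were highest with 16 to 25 CG sites in the rest of the probe. With 30 or more CG sites near the start, the lowest range was over 25 in members and up to 15 in all promoters.

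The 5 members with the highest mean in C57BL/6J controls were Prr22, Frs3os, Dnajb8, Dcst1 and C8g. Prr22 had 138.5 ± 49.0 reads (SD, n = 5, as for all group values), Frs3os 110.6 ± 47.9, Dnajb8, a chaperone of the Hsp40 family, 89.8 ± 27.3, Dcst1 88.2 ± 29.6 and C8g 86.6 ± 27.5. Each held between 39 and 72 CG sites. Among members with over 70 CG sites, Frs3os, Fam187b (27.6 ± 8.9) and Fam71e1 (27.5 ± 12.6) were highest. Among the lowest of these CG-rich members were Ribc1, on the X chromosome, with 0.5 ± 0.7, Gm7008 with 0.7 ± 1.1 and Grip1, which encodes a scaffold protein of glutamate receptors, with 0.7 ± 1.6. These 3 lay within 1 SD of 0, while Fam187b and Fam71e1 lay more than 2 SD above it.

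The 20 members on the X chromosome, which only the X-bearing sperm carry, had a median of 0.8 reads in C57BL/6J controls and 1.15 in FVB/N controls, against 7.8 and 4.3 in autosomal members. Among probes with up to 20 CG sites the medians in C57BL/6J controls were 1.2 for 15 X-linked members and 6.9 for 123 autosomal ones. In all promoters with up to 20 CG sites, the medians were 1.4 on the X chromosome and 3.8 on autosomes. In 16 of the 20 X-linked members the mean was under 3 reads in all 4 groups, and their ratios are correspondingly imprecise.

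Expression in spermatids and reads in mature sperm were almost unrelated across members. Spearman's rho between spermatid expression and reads was 0.081 in C57BL/6J controls and 0.083 in FVB/N controls over the 533 members, which share their libraries. Within the 5 ranges of CG sites, rho ranged from -0.10 to 0.28 for the spermatid value and for its difference from spermatogonia, in both control groups. The 10 members with the largest expression difference had between 1.7 reads (Hrasls5) and 16.1 reads (Spz1) in C57BL/6J controls.

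Prenatal DEHP was compared with vehicle in C57BL/6J. The median log2 ratio of means (DEHP over control, pseudocount 1 normalized read) was -0.23 over members and -0.10 over all promoters. The ratio was below 0 in 333 members (62.5%, against 54.8% of all promoters) and above 0 in 194 (36.4%, against 43.5%). When the means were scaled to equal sums, the medians were 0.23 and 0.33, so the sign depended on the scaling, whereas members lay below all promoters under either. The libraries of 13 members were separated with DEHP lower (2.44%, against 1.42% of all promoters), and those of 1 member with DEHP higher (0.188%, against 0.249%). A ratio under -1 was found in 69 members (12.9%, against 10.7% of all promoters) and a ratio past 1 in 20 (3.75%, against 5.09%).

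The ratio followed the read level. Members with a mean over the 4 groups of 40 reads or more (n = 10) had a median of 85.4 reads in C57BL/6J controls and 26.6 in DEHP, with a median log2 ratio of -1.74, and those under 3 reads (n = 124) had a median ratio of 0.19. In all promoters the medians in these ranges were -1.61 and 0.25. At equal sums the medians in members were -1.19 and 0.54, and the shift was smaller at few reads because of the pseudocount. Members with a C57BL/6J control mean of 20 or more made up 19.7%, and with DEHP 5.63%. In all promoters these shares were 14.6% and 3.35%. After subtracting the median of all promoters in the same range of level, the median ratio of members was -0.01. The mean level enters the ratio too, so this gives a description and no test.

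The 5 members with the largest ratio among those separated were Dcst1, Fam83e, Tmc5, Tmed6 and Zdhhc25. Dcst1, a sperm membrane protein needed for fertilization, had 88.2 ± 29.6 normalized reads in controls and 24.7 ± 5.4 in DEHP, with a log2 ratio of -1.80 ± 0.25 (SE from the group SDs, as for all log2 ratios). Fam83e had 82.4 ± 21 and 23.3 ± 9.9 (-1.78 on the log2 scale). Tmc5, a member of the transmembrane channel-like family, had 29.2 ± 7.3 and 8.0 ± 2.7 (log2 ratio -1.75 ± 0.25).

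Tmed6, of the p24 cargo receptor family, had 15.3 ± 2.8 reads in controls and 4.1 ± 1.9 in DEHP (log2 ratio -1.68 ± 0.26). Zdhhc25, of the palmitoyltransferase family, had 59.0 ± 11.4 and 19.4 ± 5.6 (log2 ratio -1.56). Relative to the median ratio of all promoters in the same range of level (mean of the 4 groups), the 13 separated members ran from -1.64 (Tmed6), -1.11 (Tmc5) and -0.80 (Isg20) to 0.13 (Tmem247), with Dcst1 at -0.19 and Fam83e at -0.17.

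The other 8 separated members with DEHP lower, most of them named after their values were seen, were Prss54, Tmem247, Tex43, Isg20, Slc25a41, Nutm1, Trim42 and Proca1. Prss54, a serine protease-like protein, had 58.9 ± 11.8 and 20.4 ± 5.1 reads, and Tmem247 84.2 ± 11.5 and 29.6 ± 14.3. Nutm1, which takes part in the histone acetylation of spermatids, had 15.6 ± 2.8 and 5.5 ± 1.6. Their log2 ratios ran from -0.87 (Proca1) to -1.48 (Prss54). At equal sums the ratios of all 13 members stayed below 0, between -1.24 and -0.33, but 0 of them remained separated (background 0.129%). The only member with DEHP higher was Btg4, with 1.0 ± 1.0 and 4.6 ± 0.7 reads (log2 ratio 1.49 ± 0.33). It was separated under equal sums and under equal medians too (background 0.222% at equal medians). It encodes an adaptor of mRNA deadenylation, and its probe lay 10123 bases upstream of the nearest RefSeq start of the gene used here, while overlapping a GENCODE exon of it. At equal sums 9 members were separated with DEHP higher (background 1.02%), namely Btg4, Adgb, Asb15, Gm7788, Gpx6, Gzmn, Hrasls5, Lrrc9 and Ubl7.

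**Figure D4:**
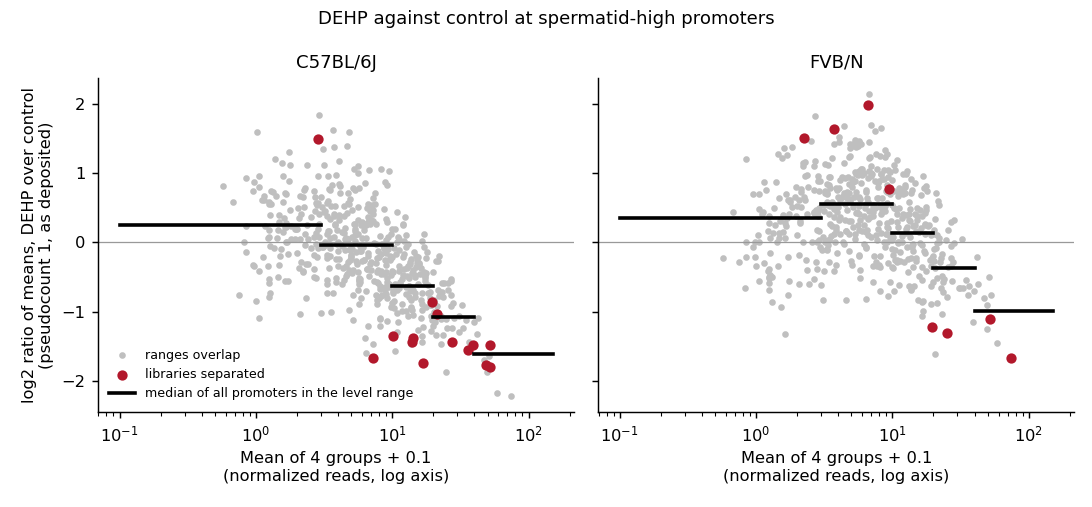
log2 ratio of means, DEHP over control (vertical axis, pseudocount 1, means as deposited), against the mean of the 4 group means plus 0.1 in normalized reads (horizontal axis, logarithmic) for each spermatid-high promoter in C57BL/6J (left) and FVB/N (right). Gray points have overlapping ranges, red points have separated libraries and black lines are medians of all 22480 promoters in 5 ranges of level; the members follow the lines, which fall from 0.25 to -1.61 in C57BL/6J and end at -0.99 in FVB/N.

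In FVB/N, the median log2 ratio of members was 0.31 and that of all promoters 0.35 (0.24 and 0.29 at equal sums). The ratio lay above 0 in 353 members (66.2%, against 69.1% of all promoters) and below 0 in 165 (31.0%, against 28.7%). With means scaled to equal medians the median of members was -0.25, so the sign depended on the scaling here too. Libraries were separated in 4 members with DEHP higher (0.75%, against 0.774% of all promoters) and in 4 with DEHP lower (0.75%, against 0.859%), shares that are close to the background. A ratio past 1 was reached by 64 members (12%, against 14.4%) and a ratio under -1 by 11 (2.06%, against 2.68%). Members with 40 reads or more had a median ratio of -0.86 and those with 3 to 10 reads 0.54 (all promoters -0.99 and 0.55). After subtracting the median of all promoters of the same level, the median of members was 0.01. The spread between males was wide in FVB/N controls, where the SD was 0.73 of the mean as a median over members, against 0.43, 0.39 and 0.34 in C57BL/6J controls, C57BL/6J DEHP and FVB/N DEHP.

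The members separated with DEHP lower in FVB/N were Prr22, AI507597, Proca1 and Dcst1. Prr22 had 99.9 ± 22.2 reads in controls and 30.6 ± 4.3 in DEHP (log2 ratio -1.67 ± 0.17), AI507597 had 35.5 ± 6.4 and 13.7 ± 4.8 (-1.31 ± 0.24), and all 4 remained separated at equal sums. In C57BL/6J, Prr22 had 138.5 ± 49.0 and 28.8 ± 13.3 reads, with ranges that overlapped. The members separated with DEHP higher were Lamb3, Gzmn, Adgb and Ngly1. Lamb3, a laminin chain, had 1.9 ± 1.8 reads in controls and 10.5 ± 2.7 in DEHP (log2 ratio 1.99 ± 0.43). Its probe overlapped an exon of Lamb3 in GENCODE, and the nearest RefSeq start used here lay 94269 bases downstream. Gzmn, a granzyme protease, had 7.5 ± 2.6 and 13.5 ± 0.5.

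Adgb, the androglobin of the sperm flagellum, had 0.9 ± 0.9 reads in FVB/N controls and 4.9 ± 1.0 in DEHP, with a log2 ratio of 1.63 ± 0.32. In C57BL/6J the values were 1.6 ± 2.4 and 7.0 ± 1.4, with a log2 ratio of 1.62 ± 0.61 and ranges that overlapped as deposited. Ngly1, the cytosolic peptide N-glycanase, had 0.2 ± 0.4 and 2.4 ± 0.6 in FVB/N. Adgb and Ngly1 stayed separated at equal sums (2 members, background 0.627%), Lamb3 and Gzmn did not, and none of the 4 did at equal medians, where their ratios were still above 0. These 4 means are low, with at most 13.5 normalized reads.

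Both strains shared direction in the separated members. All 13 members separated with DEHP lower in C57BL/6J had a ratio below 0 in FVB/N (28.7% of all promoters). It was close to 0 in Trim42 (-0.01), Slc25a41 (-0.03) and Isg20 (-0.04). All 4 separated with DEHP lower in FVB/N had a ratio below 0 in C57BL/6J (54.8% of all promoters). These shares rose with the read level. In FVB/N the ratio was below 0 in 1565 of 3770 promoters with 10 to 20 reads. It was below 0 in 1085 of 1423 with 20 to 40 and in 182 of 186 with 40 or more. Dcst1 and Proca1 were separated with DEHP lower in both, out of 39 such promoters in the whole table. At equal sums 0 members were separated with DEHP lower in both, out of 7 promoters. With DEHP higher, 1 member (Adgb) was separated in both at equal sums, out of 10 promoters. At equal medians 7 members were separated with DEHP lower in both strains, out of 132 promoters. Dcst1 fell from 64.9 ± 10.8 to 29.5 ± 8.7 reads in FVB/N, as in C57BL/6J. Proca1, whose product binds cyclin A1, fell from 28.4 ± 4.1 to 15.1 ± 2.8 in C57BL/6J, and in FVB/N from 24.2 ± 4.7 to 9.8 ± 2.5. Its log2 ratio was -0.87 ± 0.14 in C57BL/6J, where the median of all promoters of its level was -0.64, and -1.22 ± 0.19 in FVB/N, where that median was 0.13. The members with DEHP higher in FVB/N likewise had ratios above 0 in C57BL/6J, 4 of 4 (43.5% of all promoters). Both strains were prepared in the same 2 submissions, so this concordance cannot be told apart from a difference between submissions.

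**Figure D5:**
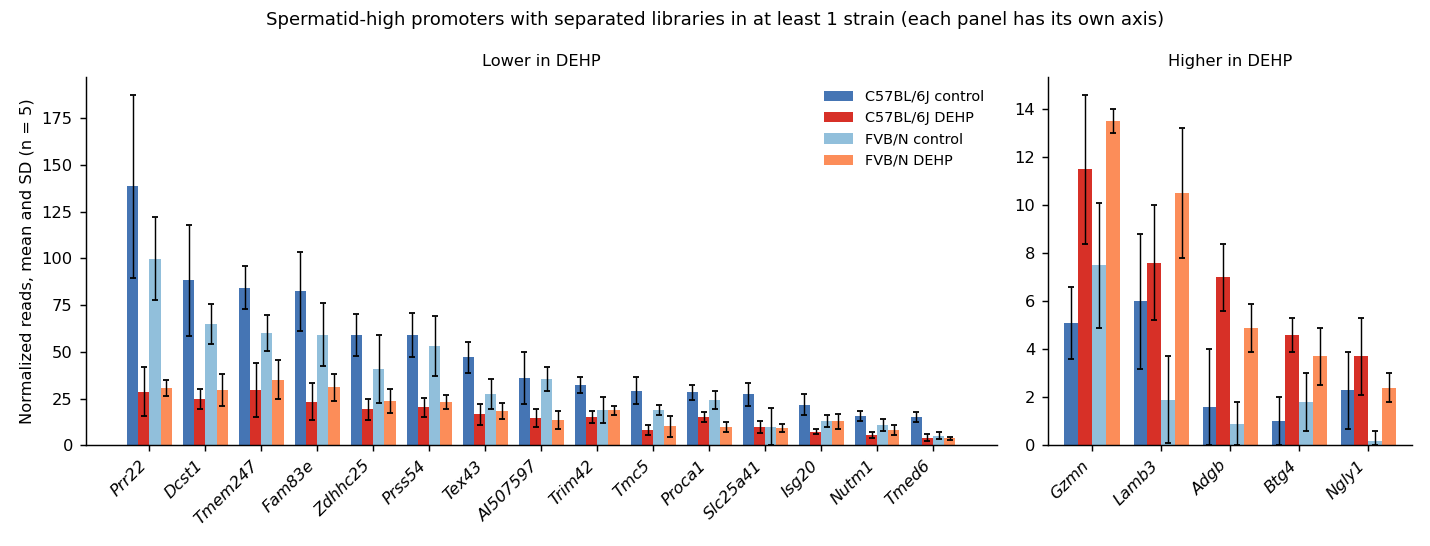
Normalized reads (vertical axis, mean with SD, n = 5 males per group) in the 4 groups for the 20 spermatid-high promoters whose libraries were separated between DEHP and control in at least 1 strain, lower in DEHP on the left and higher on the right, each panel with its own axis. Prr22, at 138.5 and 99.9 reads in the controls of both strains and 28.8 and 30.6 in DEHP, is the highest, and the promoters on the right stay below 15 reads on average.

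No member was separated in opposite directions in the 2 strains, nor was any other of the 22480 promoters. The members with the largest difference of log2 ratios relative to its SE, which was chosen as a description and not tested, were Isg20, Efcab9 and Il31. Isg20, an exonuclease induced by interferon, went from 21.8 ± 5.4 reads in controls to 7.4 ± 1.4 in DEHP in C57BL/6J, and from 13.2 ± 3.3 to 12.8 ± 3.9 in the other strain. Its ranges overlapped in FVB/N, and the difference of log2 ratios (C57BL/6J less FVB/N) was -1.40 ± 0.30 (SE), where the median difference over all promoters was -0.50. At equal sums its ratios were -0.92 and -0.13. Efcab9, a calcium sensor of the CatSper channel of the flagellum, went from 12.8 ± 3.8 to 5.4 ± 1.4 in C57BL/6J and from 4.4 ± 3.1 to 9.7 ± 3.4 in FVB/N. Its difference was -2.10 ± 0.48, the ranges overlapped in both strains, and at equal sums the ratios were -0.60 and 0.92. Il31, a cytokine gene, went from 17 ± 3.2 to 11.9 ± 3.4 and from 6.8 ± 2.6 to 14.9 ± 5.1, with ratios of 0.04 and 0.96 at equal sums.

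By role, the acrosome and sperm-egg fusion list had 20 members of its 76 promoters in the table, with medians of 8.8 reads in C57BL/6J controls and 7.8 in DEHP. Of these 20, 14 had a ratio below 0 in C57BL/6J (54.8% of all promoters) and 9 did in FVB/N (28.7%). Dcst1 and Prss54 were separated with DEHP lower in C57BL/6J (background 1.42%), and Dcst1 was in FVB/N (background 0.859%). Actl7b, Prss39 (a testicular serine protease) and Actl9 had the highest spermatid expression of the list. Actl7b had 8.8 ± 3.0 and 8.6 ± 2.8 reads in C57BL/6J, while FVB/N had 6.5 ± 5.8 and 9.2 ± 3.5. Prss39 had 8.8 ± 2.5 and 7.0 ± 2.8 in C57BL/6J, next to 6.8 ± 5.7 and 7.4 ± 2.5 in FVB/N. For this list the median log2 ratio was -0.16 (all promoters -0.10) in C57BL/6J. It was 0.24 (all promoters 0.35) in FVB/N.

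The flagellum list (axoneme, fibrous sheath and outer dense fibers) had 17 members of 123. Of these 17, 0 were separated in either strain (background 0.249% to 1.42% over strains and directions). Their median was 9.9 reads in C57BL/6J controls and 6.3 in DEHP, and 4.6 and 8.3 in FVB/N. Spag4 had 9.0 ± 2.6 and 5.9 ± 1.2 reads in C57BL/6J, where Ak8, an adenylate kinase of cilia, had 9.2 ± 3.4 and 7.2 ± 3.2 and Efcab6 5.5 ± 2.3 and 6.1 ± 1.3. In FVB/N, Spag4 had 2.9 ± 0.9 and 5.0 ± 1.8, Ak8 4.6 ± 3.7 and 6.2 ± 1.7 and Efcab6 1.4 ± 1.9 and 4.3 ± 1.6. The ratio was below 0 in 11 of 17 in C57BL/6J, where it was in 54.8% of all promoters. It was above 0 in 13 of 17 in FVB/N, where it was in 69.1%.

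Of 14 members among kinases, phosphatases and calcium or cyclic nucleotide signalling, 0 were separated (background 0.249% to 1.42% over strains and directions). Plcz1, a phospholipase that starts the calcium oscillations of the fertilized egg, was the highest, at 36.3 ± 9.8 (control) and 24.3 ± 6.5 (DEHP) reads in C57BL/6J, with 25 ± 9.9 and 21.3 ± 5.2 in FVB/N, while Ppp1r32 had 6.0 ± 2.6 and 7.2 ± 1.1, and in FVB/N 4.7 ± 3.6 and 6.4 ± 0.8. Dusp13, a dual specificity phosphatase, had more reads in FVB/N (8.9 ± 3.8 in controls) than in C57BL/6J (3.7 ± 1.4), with ranges that overlapped. Of the 4 members in energy metabolism, Atp6v1e2, a testis isoform of a proton pump subunit, had 24.3 ± 7.6 and 12.6 ± 3.8 in C57BL/6J. Phkg2, a catalytic subunit of phosphorylase kinase, had 1.2 ± 0.8 and 2.8 ± 1.0, and Aldoart1, an aldolase retrogene, 1.5 ± 1.6 and 0.5 ± 0.5. The FVB/N values were 16 ± 5.8 and 12.3 ± 7.4 for Atp6v1e2, 1.1 ± 0.8 and 3.7 ± 0.7 for Phkg2 and 1.3 ± 1.1 and 1.4 ± 1.0 for Aldoart1.

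The ubiquitin list had 16 members of 90, with medians of 12.8 and 8.55 reads in C57BL/6J. There Trim42 (32.2 ± 4.1 and 15.2 ± 3.4) was separated with DEHP lower as deposited (background 1.42%), but not at equal sums (0.129%). In FVB/N Trim42 had 18.9 ± 6.8 and 18.8 ± 2.4. Asb17 had 28.1 ± 5.9 (control) and 18.4 ± 7.7 (DEHP) reads in C57BL/6J, with 29.1 ± 3.9 and 19.8 ± 4.7 in FVB/N. March10, a ubiquitin ligase, had 13.3 ± 4.2 and 8.1 ± 3.6 in C57BL/6J, next to 7.0 ± 4.8 and 6.6 ± 2.9 in FVB/N. All but Trim42 had overlapping ranges.

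Among chromatin and transcription genes, the 4 members were Fhl5, Gtf2a1l, H2afb1 and Papolb, of which 0 were separated (background 0.249% to 1.42%). Fhl5, a coactivator of CREM, had 11.4 ± 4.1 (control) and 14.9 ± 5.2 (DEHP) reads in C57BL/6J, with 8.0 ± 2.5 and 14.6 ± 4.6 in FVB/N. Gtf2a1l, a germ cell form of the general factor TFIIA, had 12.9 ± 4.9 and 8.3 ± 2.8. H2afb1, a histone variant whose probe overlaps exons annotated as H2al2a and Gm13329, had 9.7 ± 5.7 and 8.3 ± 2.0. In FVB/N, Gtf2a1l had 7.0 ± 2.9 and 8.2 ± 1.8 and H2afb1 12.1 ± 3.3 and 7.8 ± 4.0. The 67 members named Spata, Tex, Ccdc, Fam or Tmem had 3 separated with DEHP lower in C57BL/6J (Fam83e, Tex43 and Tmem247, background 1.42%) and 0 at equal sums, and 0 with DEHP lower in FVB/N (background 0.859%). Among them Fam229b had 17.7 ± 2.7 and 10.9 ± 1.8, and Spata33 19.4 ± 9.3 and 11.5 ± 3.9 in C57BL/6J. In FVB/N they had 10 ± 3.6 and 11.8 ± 3.4, and 11 ± 7.1 and 11.7 ± 4.9. The 6 members of the list of multicopy, mostly X-linked spermatid genes included Cypt3 and Tsga8. Their medians were 0.8 and 1.9 reads in C57BL/6J. Of these 6, 0 were separated in either strain (background 0.249% to 1.42%). Reads with several positions were discarded by the authors, which limits what multicopy promoters can show.

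The strains were compared within each treatment. In controls the median log2 ratio (C57BL/6J over FVB/N) was 0.60 over members and 0.54 over all promoters, and 0.04 and 0.00 at equal sums. Libraries were separated in 3 members with C57BL/6J higher (0.563%, against 1.06% of all promoters) and 1 with C57BL/6J lower (0.188%, against 0.0267%). Speer3 had 7.1 ± 1.5 reads in C57BL/6J controls and 0.7 ± 0.6 in FVB/N controls, Slc35g3, of a family of sugar transporters, had 11.8 ± 0.5 and 3.1 ± 2.2, and Tmed6 had 15.3 ± 2.8 and 5.1 ± 1.8. The Speer3 promoter holds 43 variants between the strains, Slc35g3 2 and Tmed6 0, and the part of variants in these values was not tested. At equal sums Speer3 alone stayed separated, 1 of the 3. Dlx6, a homeobox gene, was listed at 0 in both C57BL/6J groups and had 2.0 ± 0.9 in FVB/N controls.

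Between the DEHP groups, the median ratio was 0.02 in members and 0.04 in all promoters. Libraries of 0 members were separated with C57BL/6J higher (background 0.307%) and those of 1 with C57BL/6J lower (0.188%, against 0.0311%). At equal sums and at equal medians it stayed 1 member (backgrounds 0.0356% and 0.0445%). This was Abhd16b, with 4.6 ± 0.9 in C57BL/6J and 9.5 ± 0.5 in FVB/N (log2 ratio -0.91 ± 0.11), while in controls it had 15.7 ± 9.4 and 11.6 ± 3.0. Members with 10 or more promoter variants (n = 67) had a median log2 ratio between control strains of 0.81, and those without variants (n = 306) 0.56, while in all promoters these medians were 0.80 and 0.49.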

How the data were processed

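Sperm DNA of 20 F1 males, 5 in each group, was measured by MBD-sequencing. The deposited signal values are group means of normalized reads per promoter, with their SDs, to 1 decimal. Per the study's methods, the authors aligned read-pairs to mm10 and discarded those with several positions, with mates more than 600 bp apart or with no CpG in the insert. They kept probes with more than 3 read-pairs in more than 2 samples. Bowtie 0.12.7 and edgeR are named in the submitters' processing notes. What the normalized reads are scaled to is not given in the sources used here, so the depth of single libraries is unknown. The expression score of each gene was added by the authors from an independent microarray dataset, on a scale not stated, taken as logarithmic. The 9 deposited columns with fold changes, p-values and false discovery rates of the authors' comparisons were not used.

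The tests planned on single libraries need values of single males, which were not used here. They were replaced by the log2 ratio of means (pseudocount 1), its SE from the SDs, and the range of mean ± 1.79 SD, widened by the rounding of 0.05 in mean and SD. On 22480 simulated promoters modelled on C57BL/6J DEHP against control, 0 were called separated wrongly and 51.8% of those truly separated were found. Means were also scaled to equal sums and to equal medians. Sequences were read from GRCm38.p6. The number of CG sites equalled the deposited one in 507 of 533 members, and a RefSeq start was found for 431, of which 395 lay within 100 bases of the probe's start site. Exons are from GENCODE.

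Genes were named by rule: per strain and direction the 5 largest ratios among separated members with at least 5 reads in the higher group, members separated in both strains, the 5 highest members, the 3 highest and 3 lowest with over 70 CG sites, the 10 largest expression differences, the 3 largest strain differences per direction, the 3 members per list with the highest spermatid expression, and the 3 largest differences of ratios between strains. Separated members outside it, such as Btg4, Adgb, Ngly1 and Dlx6, were named after their values were seen. The members and lists were chosen with earlier results of these data known. The comparison with other genes of the same exclusions, the ratio relative to level and the names under each scaling were added after the data were seen. Python 3.11.15, numpy 2.4.6, pandas 2.3.3, scipy 1.17.1, pysam 0.24.0 and matplotlib 3.10.9 were used. Some items that fall under these rules are not reported here.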

Additional observations from a re-analysis of the deposited data

How the results depend on the processing

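No paired analysis was possible because the table gives group means only and the replicate numbers follow accession order, and for the same reason no library could be left out. With means scaled to equal sums, the median log2 ratio of members in C57BL/6J turned from -0.23 to 0.23, and with equal medians that in FVB/N turned from 0.31 to -0.25. These turns follow from the scaling factors. Keeping members with a mean of at least 3 reads gave -0.38 in C57BL/6J.

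Counts of separated members are set beside the share of all promoters in brackets. Equal sums gave 9 members higher (1.02%) and 0 lower (0.129%) with DEHP in C57BL/6J, 2 higher in FVB/N (0.627%), and between control strains 1 higher (0.307%) and 2 lower (0.111%) in C57BL/6J. Equal medians gave 0 higher (0.125%) and 24 lower (4.50% of members, 3.25%) with DEHP in FVB/N, and between control strains 1 higher (0.289%) and 2 lower (0.129%). A mean of at least 3 reads left 0 higher with DEHP in C57BL/6J and 0 lower between control strains. An expression difference of at least 4 left 0 higher with DEHP in C57BL/6J, 2 higher in FVB/N, and 0 lower in C57BL/6J in either comparison of strains. Ranges of 1 SD, which do not guarantee that libraries are apart, gave 14 higher (2.8%) and 76 lower (14.3% of members, 11.2%) in C57BL/6J, 37 higher (7.38%) and 24 lower (3.4%) in FVB/N, 52 higher between control strains (9.76% of members, 8.84%), and 10 higher (2.19%) and 3 lower (0.494%) between DEHP strains. Without the sex chromosomes, or with 1 of each overlapping pair of probes, the counts stayed within 1.5 times. Rounding to 1 decimal limits members under 3 reads most.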
